A study of Homo sapiens with 6 samples.

Results

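MYC-driven ribosome biogenesis and growth genes were examined in L428, an established cell line from human Hodgkin lymphoma, treated with an siRNA that targets BATF3 or with a negative control siRNA. The set was a list of 45 MYC target genes of the nucleolus, of ribosome assembly and of growth metabolism. The genes were listed by name and not picked by their response, though earlier results of these data were known when the list was made. Of the 18244 genes measured, 41 were members of the list. The other 4 members, GNL3, DDX18, SORD and AIMP2, were not analysed here.

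The tested cells received the BATF3 siRNA and the comparison cells the negative control siRNA, each as 3 µg by nucleofection, a form of electroporation, and all were cultured for 48 hours. RNA from 3 samples per siRNA was read on Affymetrix PrimeView arrays, 6 arrays in all. Only 1 BATF3 siRNA was used, and all samples are of 1 cell line. Whether the replicates were separate cultures is not given by the labels, so the spread behind each p-value may be technical.

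MYC is a transcription factor that pairs with MAX and binds the E-box, the DNA letters CACGTG. It is best known for switching on the genes that make ribosomes: RNA polymerase I copies ribosomal RNA in the nucleolus, small nucleolar RNA complexes modify it, and assembly factors fold and cut it into the small and large subunits. The same program supplies polyamines, pyrimidines and mitochondrial gene products for growth. BATF3 is a basic leucine zipper factor expressed in Hodgkin lymphoma cells.

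The E-box is a feature that many members share. As the members were listed as MYC targets and MYC binds the E-box, its share among them is not independent of that choice. RefSeq promoter windows (GRCh38.p14), which run from 250 bases before to 50 bases after each annotated start, were found for 35 of the 41 measured members. The letters CACGTG, which read the same on both strands and cannot overlap another copy of themselves, were in at least 1 window of 18 of these 35 members (51.4%). They were in at least 1 window of 1582 of 14494 measured genes with a window (10.9%). Per window the shares were 18 of 43 member windows (41.9%) and 7.26% of all 35116 windows. Members without a window were NOLC1, TCOF1, MPHOSPH10, RRP12, PUS1 and SLC29A2. Of the 21 matches in member windows, 9 began before the start and 12 after it, and 17 lay within 50 bases of it. A match is a description of these letters, not a measured binding site.

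The matches of 8 members whose array values are given below are printed to show how the E-box sits in each promoter. SRM, whose array values are given too, has a match 199 bases before the start that is not printed. That match lies farther from the start than those printed. Each line has 30 bases, 5′ to 3′ on the gene's strand, with the E-box in capitals. EXOSC5 and ODC1 each have 2 matches, and the first printed is the one farther upstream.
MYBBP1A: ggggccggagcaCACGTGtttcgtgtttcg
FBL: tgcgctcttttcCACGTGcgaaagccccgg
RCL1: cctgttccaaacCACGTGgacgcgtctggg
PES1: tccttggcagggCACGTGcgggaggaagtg
IPO4: tgtcagaacctcCACGTGctgtccctcccc
EXOSC5: taaacgctaagcCACGTGcggacgcccagg
EXOSC5: caactgcagccgCACGTGggctcggcgcga
ODC1: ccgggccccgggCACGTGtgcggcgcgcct
ODC1: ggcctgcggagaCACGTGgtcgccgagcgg
SLC19A1: ttcgcgcccaggCACGTGttgcttcgggac

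In GRCh38.p14 the MYBBP1A stretch lies on the minus strand at chr17:4555340-4555369, with its E-box starting 28 bases into the transcript. The FBL stretch lies on the minus strand at chr19:39846356-39846385 (base 7 of the transcript), and that of RCL1 on the plus strand at chr9:4792936-4792965 (base 5). For PES1 it lies on the minus strand at chr22:30591880-30591909 (base 14), and for IPO4 on the minus strand at chr14:24188828-24188857, where the E-box begins 29 bases before the start. The 2 EXOSC5 stretches lie on the minus strand at chr19:41397431-41397460 (89 bases before the start) and chr19:41397328-41397357 (base 15). Those of ODC1 lie on the minus strand at chr2:10448024-10448053 (29 bases before the start) and chr2:10447990-10448019 (base 6), and that of SLC19A1 on the minus strand at chr21:45541797-45541826 (base 33, for 1 of its alternative starts).

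BATF3, the gene the siRNA targets, was at 10.87, 10.76 and 10.69 in the 3 BATF3 siRNA arrays and at 11.89, 12.08 and 11.94 in the 3 control siRNA arrays (log2 values). All BATF3 siRNA arrays lay below all control siRNA arrays. BATF3 fell by 1.20 on the log2 scale (SE 0.095, limma adjusted p = 0.00673), to 0.436 of the control level. The BATF3 call did not hold when BATF3 siRNA replicate 3 (limma adjusted p = 0.0688) or control siRNA replicate 2 (0.0648) was left out, or with the array background as a covariate (0.25), while the change stayed between −1.16 and −1.11 in these 3 fits. MYC was at 10.59, 10.67 and 10.66 after BATF3 siRNA and at 10.71, 10.79 and 10.81 after control siRNA (log2 values). Each BATF3 siRNA array was lower than each control siRNA array, by a small margin. The MYC change of −0.13 (95% confidence interval −0.32 to 0.06) did not pass the test (limma adjusted p = 0.822).

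Of the 10 markers fixed for L428 and Hodgkin cells, 9 were above the highest background probe set on every array, and CD274 was above it on some. All 7 T and NK cell markers and all 6 fibroblast and epithelial markers lay under it on every array, as did 5 of 6 myeloid markers, all but CD68. The mean level per marker was 4.19 to 4.34 in the BATF3 siRNA arrays and 4.07 to 4.17 in the control siRNA arrays for the myeloid list, 4.45 to 4.53 and 4.31 to 4.44 for the T and NK list, and 4.79 to 4.93 and 4.89 to 4.94 for the fibroblast and epithelial list. The background probe sets with 20 to 25 G or C bases a probe were at 6.49, 5.92 and 5.98 on the BATF3 siRNA arrays (replicates 1, 2 and 3) and at 6.46 to 6.49 on the control siRNA arrays. Its part in the results below was not tested apart from a fit that held it as a covariate.

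No measured member passed the test between the siRNAs. With limma, 0 of 41 members had an adjusted p under 0.05, where 0.0164% of all genes did (3 of 18244). At an unadjusted p under 0.05 there were also 0 of 41 members, against 7.15% of all genes. The smallest adjusted p of a member was 0.717, for PES1. The groups did not overlap for 1 member, PES1, where 12.1% of all genes had groups that did not overlap.

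The changes of the members were small in size as well. They ran from −0.20 (PES1) to +0.16 (MPHOSPH10), and 26 of 41 were smaller than 0.1 on the log2 scale. The median change was −0.0042, beside −0.0027 over all genes, and it was positive after median centring (0.020), where the median over all genes was 0.021. The quartiles of the members lay at −0.061 and 0.044, and those of all genes at −0.089 and 0.082. Every 95% confidence interval included 0, and 40 of 41 lay within 0.5 of 0, the exception being SRM (lower bound −0.54). Taken over all 41 members, the intervals leave room for a level as low as 0.687 times (SRM) or as high as 1.38 times (MPHOSPH10) the control level. The median standard error of a member's change was 0.114.

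**Figure D1:**
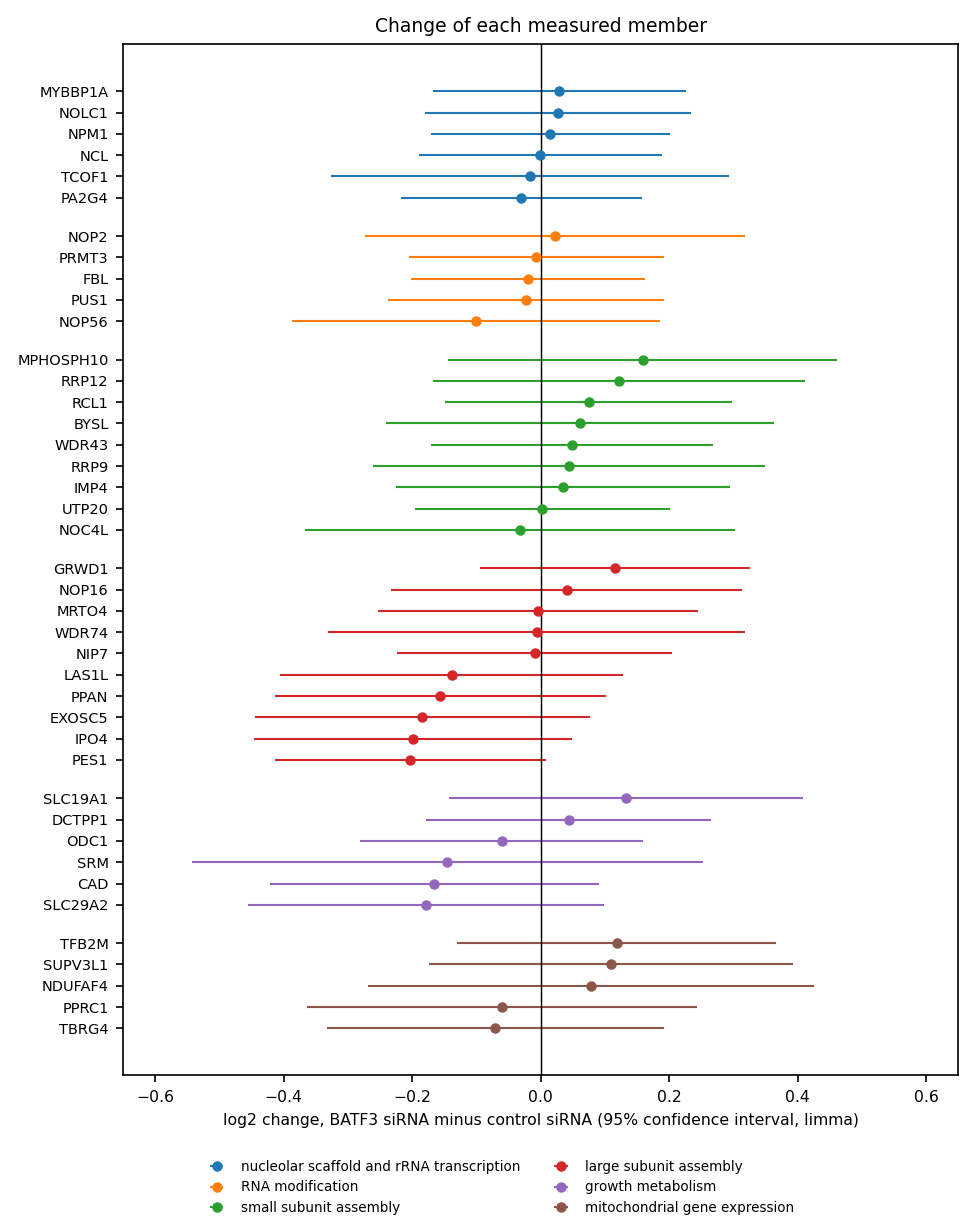
Each point is a member's log2 change, BATF3 siRNA minus control siRNA (x axis), with its 95% confidence interval from limma, grouped and coloured by role. All 41 intervals cross 0, and small subunit genes lie mostly right of 0 and large subunit genes mostly left of it.

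**Figure D2:**
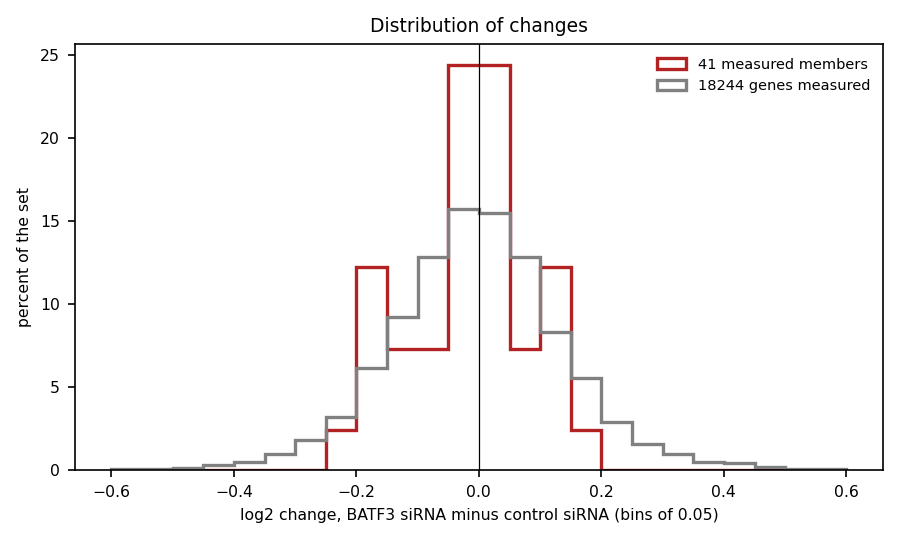
The share of each set (y axis, percent) is drawn by log2 change, BATF3 siRNA minus control siRNA, in bins of 0.05 (x axis), for the 41 measured members and for all 18244 genes. The members lie between −0.20 and 0.16, inside the bulk of all genes.

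By the probe set used, the nucleolar scaffold and ribosomal RNA transcription genes had the narrowest range of changes among the 6 role classes. Of 6 measured members 3 were higher and 3 lower, with changes between −0.030 and 0.029 and a median of 0.0074, which was negative after quantile normalization (−0.0047) and cyclic loess (−0.017). Other probe sets of these genes ran wider, from −0.14 to 0.14 for TCOF1, to −0.12 for MYBBP1A and to 0.17 for NOLC1. They reached 0.15 for NPM1 and 0.13 for NCL, while PA2G4 lay between −0.044 and −0.030. NCL encodes nucleolin, an abundant nucleolar protein that binds ribosomal RNA. It was at 12.13, 12.26 and 12.16 after BATF3 siRNA and at 12.18, 12.20 and 12.16 after control siRNA, so the groups overlapped and the means were 12.18 ± 0.064 and 12.18 ± 0.021 (log2, SD, n = 3 each). NPM1 encodes nucleophosmin, a nucleolar chaperone of ribosomal and histone proteins. It was at 13.30, 13.37 and 13.37 after BATF3 siRNA and at 13.34, 13.29 and 13.36 after control siRNA, a change of 0.015 (95% confidence interval −0.17 to 0.20). Its probe set is of a kind that can also pick up similar sequences, and NPM1 has many pseudogenes, so this value may hold more than 1 transcript. NOP2 and PPAN, of other classes, were read by probe sets of the same kind.

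PA2G4, whose product binds the ErbB3 receptor and ribosomes, was at 12.33, 12.39 and 12.29 after BATF3 siRNA and at 12.37, 12.34 and 12.40 after control siRNA. MYBBP1A encodes a nucleolar partner of MYB that takes part in ribosomal RNA synthesis. It was at 9.98, 10.09 and 9.92 after BATF3 siRNA and at 9.93, 9.99 and 9.99 after control siRNA. NOLC1 encodes a chaperone of small nucleolar RNA complexes, and was at 11.71, 11.95 and 11.80 after BATF3 siRNA and at 11.79, 11.77 and 11.81 after control siRNA. In all of these the groups overlapped, and the changes were −0.030, 0.029 and 0.027. TCOF1, which encodes treacle, a factor of RNA polymerase I transcription, had a change of −0.017.

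Among the RNA modification genes 1 of 5 was higher and 4 were lower, with a median change of −0.019, but 4 of 5 were higher after median centring (median 0.0048). FBL encodes fibrillarin, the enzyme that methylates ribosomal RNA under the guidance of box C/D RNAs. It was at 12.37, 12.41 and 12.40 after BATF3 siRNA and at 12.42, 12.42 and 12.39 after control siRNA, a change of −0.019 (95% confidence interval −0.20 to 0.16). NOP56, a core protein of the same complexes, was at 11.89, 12.03 and 11.78 after BATF3 siRNA and at 11.82, 12.26 and 11.92 after control siRNA. Control siRNA replicate 2 was the highest array for NOP56, and the change was −0.10 (limma adjusted p = 0.916). All 4 of its probe sets had negative changes, of −0.11 to −0.0064.

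PUS1 encodes a pseudouridine synthase known best for acting on transfer RNA. It was at 10.52, 10.65 and 10.49 after BATF3 siRNA and at 10.47, 10.69 and 10.56 after control siRNA. The groups overlapped, with replicate 2 the highest array of each. NOP2, a methyltransferase of large subunit RNA, had a change of 0.023, and PRMT3, an arginine methyltransferase of a small subunit protein, one of −0.0067.

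Of the 9 small subunit assembly genes 8 had a positive change, with a median of 0.049, and 0 passed the test. The count of 8 held after quantile normalization, median centring and cyclic loess, but it depends on the probe set chosen. For RRP12 and BYSL only 1 of 3 probe sets was higher, with changes down to −0.043 and −0.14. MPHOSPH10, IMP4, UTP20, WDR43, RCL1 and NOC4L belong to the small subunit processome, the large particle that folds and cuts the early precursor, and RRP9 is a protein of the U3 small nucleolar RNA complex within it. MPHOSPH10 was at 8.87, 9.11 and 8.87 after BATF3 siRNA and at 8.60, 9.07 and 8.71 after control siRNA. Its change of +0.16 was the largest positive one of a member (95% confidence interval −0.14 to 0.46, limma adjusted p = 0.862), and control siRNA replicate 2 lay as high as the BATF3 siRNA arrays.

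RRP12, which helps export the precursors of the small subunit, was at 9.62, 9.91 and 9.55 after BATF3 siRNA and at 9.45, 9.79 and 9.48 after control siRNA. RCL1, which serves early cuts of the precursor, was at 10.32, 10.32 and 10.27 after BATF3 siRNA and at 10.16, 10.40 and 10.12 after control siRNA. In each gene control siRNA replicate 2 kept the groups from separating. The changes were 0.12 for RRP12 and 0.075 for RCL1. BYSL, which acts late in small subunit maturation, was at 0.061, WDR43 at 0.049, RRP9 at 0.044, IMP4 at 0.035, UTP20 at 0.0025 and NOC4L at −0.033 (log2 changes).

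Of the 10 measured large subunit assembly genes 8 had a negative change, with a median of −0.074, and 0 passed the test. After median centring 5 of 10 were negative, so the count depends on the scaling, while the median stayed negative (−0.050). PES1 encodes pescadillo, which with BOP1 and WDR12 forms a complex needed to process large subunit RNA. It was at 8.32, 8.33 and 8.23 after BATF3 siRNA and at 8.37, 8.61 and 8.51 after control siRNA, or 8.29 ± 0.052 and 8.49 ± 0.12 (log2, SD, n = 3 each). PES1 was the member whose groups did not overlap, with control siRNA replicate 1 closest to the BATF3 siRNA arrays. Its change was −0.20 (95% confidence interval −0.41 to 0.009, limma adjusted p = 0.717), or 0.869 of the control level, and groups that did not overlap with lower values after BATF3 siRNA were found for 5.78% of all genes.

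IPO4 encodes an importin that carries ribosomal proteins and histones into the nucleus, so it is counted in this class in a wide sense. It was at 8.74, 8.94 and 8.65 after BATF3 siRNA and at 8.82, 9.08 and 9.03 after control siRNA, a change of −0.20 (limma adjusted p = 0.786). EXOSC5, a subunit of the RNA exosome that trims precursor RNA, was at 8.05, 7.89 and 7.70 after BATF3 siRNA and at 7.98, 8.22 and 8.00 after control siRNA, a change of −0.18 (limma adjusted p = 0.813). In both genes 1 BATF3 siRNA array reached into the control range. Both are among the 8 negative changes of this class, and EXOSC5 too is counted in it in a wide sense. The other members had changes of −0.16 for PPAN, a factor of large subunit precursors, −0.14 for LAS1L, which cuts the spacer before large subunit RNA, and 0.12 for GRWD1, a chaperone of a large subunit protein. NOP16 was at 0.041, NIP7 at −0.0095, WDR74 at −0.0060 and MRTO4 at −0.0042 (log2 changes), all factors of nucleolar large subunit precursors.

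The listed class of growth metabolism had 6 measured members, 2 higher and 4 lower, with a median change of −0.10. ODC1 encodes ornithine decarboxylase, which makes the first polyamine, and is a textbook MYC target. It was at 11.63, 11.59 and 11.39 after BATF3 siRNA and at 11.53, 11.67 and 11.59 after control siRNA, a change of −0.060 (95% confidence interval −0.28 to 0.16). CAD encodes the enzyme of the first steps of pyrimidine synthesis, and was at 8.67, 8.73 and 8.57 after BATF3 siRNA and at 8.68, 9.05 and 8.73 after control siRNA. The CAD groups overlapped narrowly and control siRNA replicate 2 stood highest, with a change of −0.17 (limma adjusted p = 0.833).

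SLC19A1, the reduced folate carrier, was at 9.70, 9.79 and 9.52 after BATF3 siRNA and at 9.33, 9.73 and 9.55 after control siRNA, a change of 0.13. SLC29A2, a nucleoside transporter, was at 5.96, 6.35 and 6.41 after BATF3 siRNA and at 6.42, 6.46 and 6.39 after control siRNA, a change of −0.18. SLC29A2 lay under the highest background probe set on all 6 arrays, so the size of its change is uncertain, and the other 40 members lay above it on every array. SRM, which makes spermidine, had a change of −0.15, and DCTPP1, which breaks down surplus dCTP, one of 0.044.

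Genes of mitochondrial gene expression and assembly had 3 of 5 positive changes and a median of 0.078. TFB2M, a transcription factor of mitochondrial DNA, was at 9.25, 9.57 and 9.38 after BATF3 siRNA and at 9.17, 9.40 and 9.27 after control siRNA. SUPV3L1, a mitochondrial RNA helicase, was at 9.48, 9.71 and 9.69 after BATF3 siRNA and at 9.32, 9.76 and 9.47 after control siRNA. TBRG4, which stabilises mitochondrial messenger RNAs, was at 9.52, 9.31 and 9.12 after BATF3 siRNA and at 9.28, 9.47 and 9.41 after control siRNA. The groups overlapped in all of them, with changes of 0.12, 0.11 and −0.071. NDUFAF4, an assembly factor of respiratory complex I, was at 0.078 and PPRC1, a coactivator of mitochondrial genes, at −0.061 (log2 changes).

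**Figure D3:**
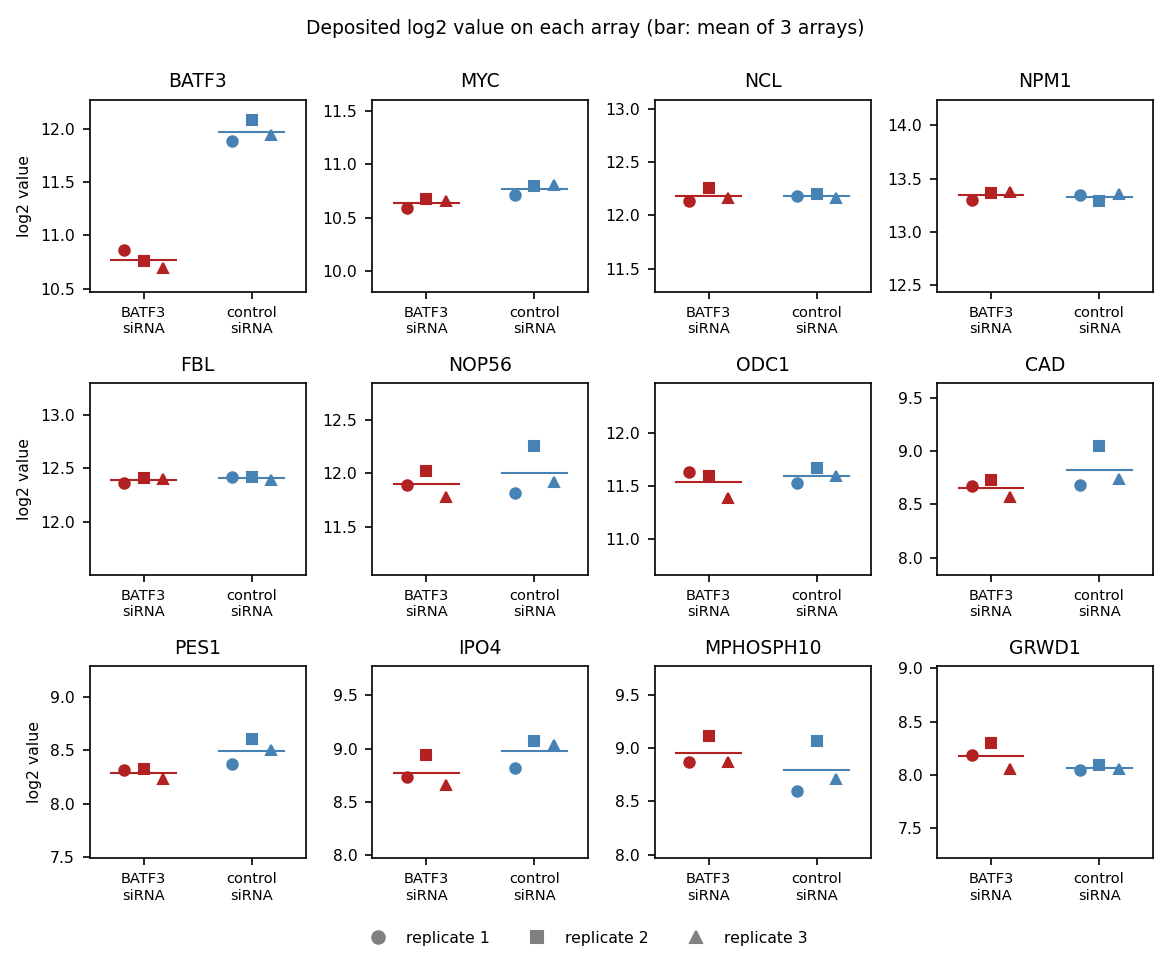
Each panel shows 1 gene's deposited log2 value (y axis, the same span of 1.8 in every panel) on the 3 BATF3 siRNA arrays (red, left) and the 3 control siRNA arrays (blue, right), with a marker per replicate and a bar at the mean. BATF3 separates by 1.20, MYC and PES1 by small margins, and in NOP56, CAD and MPHOSPH10 control siRNA replicate 2 stands above the other control arrays.

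The members moved together from array to array more than they moved with the siRNA. The mean deviation of the 41 members from each gene's own mean was −0.017, 0.090 and −0.092 in BATF3 siRNA replicates 1, 2 and 3, and −0.11, 0.17 and −0.043 in control siRNA replicates 1, 2 and 3 (log2). Over all genes these means lay between −0.017 and 0.021 on every array. The common scale of the arrays holds that mean near 0, so it is no independent comparison. The members were also brighter, with a median level of 9.81 against 6.63 over all genes (log2). The group means of the member deviations were −0.0065 ± 0.091 after BATF3 siRNA and 0.0065 ± 0.14 after control siRNA (SD, n = 3 each), a difference well inside the spread between arrays.

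Replicate 2 was the highest array of its group in most members under both siRNAs. It was the highest BATF3 siRNA array for 31 of 41 members and the highest control siRNA array for 38 of 41, where the shares over all genes were 30.4% and 46.0%. Both held for 29 of 41 members (70.7%), where 15.8% of all genes showed both. The 3 members in which control siRNA replicate 2 was not the highest control array were NPM1, NOLC1 and PA2G4, all of the nucleolar scaffold class. Members that share an array are not independent of each other, and the labels do not say that equal replicate numbers mark a shared culture or day. MYC itself was highest in replicate 2 after BATF3 siRNA (10.67) and in replicate 3 after control siRNA (10.81).

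Control siRNA replicate 2, the array with the highest member mean, also stood apart in some measures of array quality. Its actin probe sets differed by 0.369 between the 3′ and 5′ ends, against 0.487 to 0.62 on the BATF3 siRNA arrays and 0.542 and 0.553 on the other control siRNA arrays (log2). It had the lowest 18S ribosomal RNA control values of the 6 arrays, with 13.61 at the 3′ end, against 13.74 to 13.80 on the others, and 13.73 in the middle, against 13.80 to 13.85. At the 5′ end it read 13.34, against 13.41 to 13.48 on the others. Its weight in the fit with array weights was the lowest, 0.384, but that weight is drawn from the same expression values. Other measures did not set it apart. Its GAPDH difference between the ends was −0.244, beside −0.239 in BATF3 siRNA replicate 1. Its GC-rich background of 6.48 lay between those of control siRNA replicates 3 (6.46) and 1 (6.49). BATF3 siRNA replicate 2, the other array with a high member mean, had the highest actin difference (0.62). The part of array quality or background in the array pattern was not tested.

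The members differed in how far they followed this array pattern. FBL spanned 0.055 over the 6 arrays, NPM1 0.083, PA2G4 0.11 and NCL 0.12, while SRM spanned 0.79, WDR74 0.60 and NDUFAF4 0.58 (log2, genes chosen after their values were seen). In the control siRNA arrays FBL, NPM1, PA2G4 and NCL had means of 12.18 to 13.33 (log2). Those of SRM, WDR74 and NDUFAF4 were lower, at 8.71 to 11.18, and the part of signal level in the spans was not tested. SRM was at 10.18, 10.39 and 9.90 after BATF3 siRNA and at 10.09, 10.69 and 10.12 after control siRNA. The median spread within a group was 0.057 for the nucleolar scaffold class and 0.19 for the small subunit class (SD), beside 0.13 over all genes.

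The balance of signs between the siRNAs moved both ways when 1 array was left out. With all arrays 19 of 41 members had a positive change. The count was 21 without BATF3 siRNA replicate 1, 11 without replicate 2 and 29 without replicate 3. It was 13 without control siRNA replicate 1, 29 without replicate 2 and 13 without replicate 3. The median change of the members ran from −0.040 without BATF3 siRNA replicate 2 to 0.062 without control siRNA replicate 2, the fit in which the median over all genes was 0.0091. Without control siRNA replicate 2, 9 members were higher with groups that did not overlap, where 14.3% of all genes were, and 1 was lower, PES1. MPHOSPH10 then had a change of 0.30 (limma adjusted p = 0.587), and still 0 of 41 members passed. Control siRNA replicate 2 was the highest control array for 38 of 41 members, so leaving it out raises their changes by arithmetic. Counts by class were made for this fit only, not for the fits with 11 or 13 positive members. All 9 small subunit genes were positive in it (median 0.16), and 5 of 10 large subunit genes (median 0.012). The median also turned positive for the RNA modification class (0.030, 4 of 5 positive) and the growth metabolism class (0.012, 3 of 6 positive). It was 0.013 for the nucleolar scaffold class (4 of 6 positive) and 0.18 for the mitochondrial class (4 of 5 positive).

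**Figure D4:**
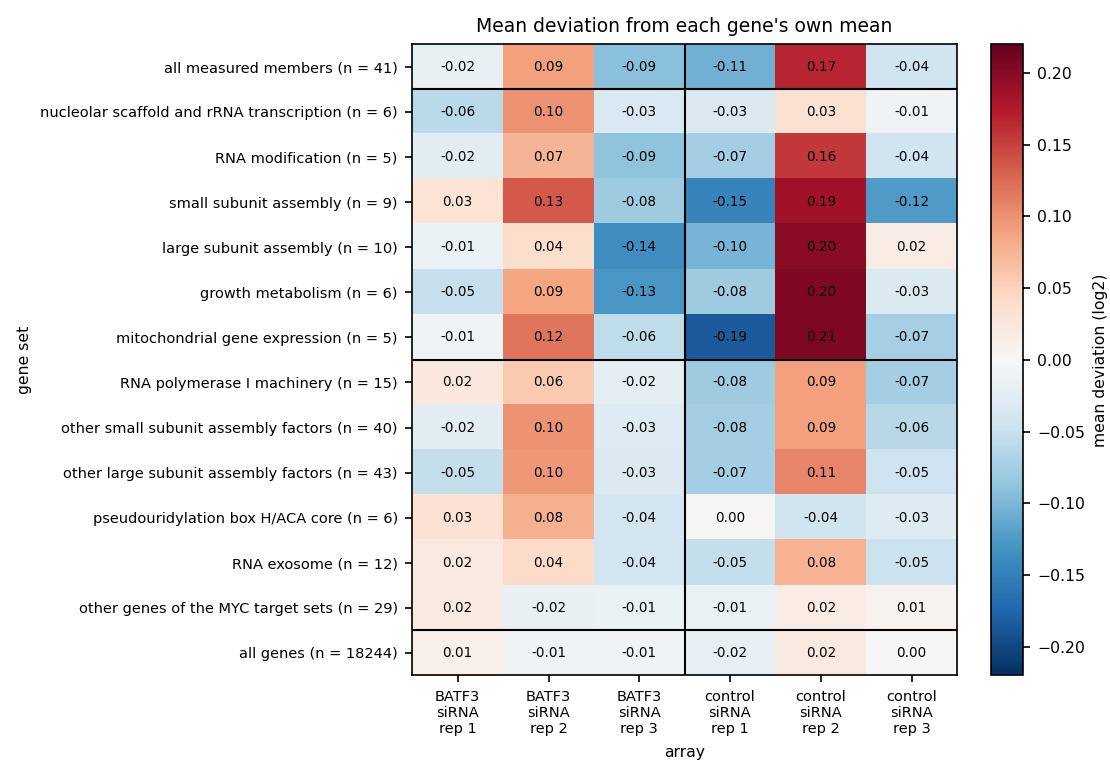
The colour and number in each cell give the mean deviation of a gene set (rows, with its number of genes) from each gene's own mean over 6 arrays, in log2 units, on each array (columns, BATF3 siRNA left of control siRNA). Replicate 2 is the highest array of both siRNAs for the 41 members (0.09 and 0.17). All 18244 genes stay near 0, where the common scale of the arrays holds them.

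Other genes of the ribosome pathway, which are not members, had the same lack of calls. Of 15 RNA polymerase I machinery genes limma called 0 (0 at an unadjusted p under 0.05), with 10 positive changes and a median of 0.013. POLR1D, a polymerase subunit, was at 0.24 and POLR1A, the largest subunit, at 0.18 (log2 changes, limma adjusted p = 0.709 and 0.81). POLR1A lay under the highest background probe set on 4 arrays and another of its probe sets had a change of −0.18, so its size and direction are uncertain. Of 40 other small subunit assembly factors 0 passed (1 at an unadjusted p under 0.05), with 21 positive changes and a median of 0.0063 that was negative after quantile normalization (−0.010) and cyclic loess (−0.0058). In that list UTP18 was at 0.22 and DCAF13 at 0.37, both of the small subunit processome (log2 changes, limma adjusted p = 0.689 and 0.7). Another probe set of UTP18 had a change of −0.28, so its direction is uncertain too. The positive balance of the 9 small subunit members, 8 of 9, thus stood beside 21 of 40 in the wider list, and no test was made of either.

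Of 43 measured other large subunit assembly factors 0 passed (3 at an unadjusted p under 0.05), with 19 positive changes and a median of −0.017, which was positive after median centring (0.0071). DDX10, an RNA helicase, was at 0.31 and MAK16, a factor of large subunit precursors, at 0.26 (log2 changes, limma adjusted p = 0.602 and 0.689). DDX10 was at 7.93, 8.14 and 7.84 after BATF3 siRNA and at 7.61, 7.78 and 7.61 after control siRNA, with groups that did not overlap. The box H/ACA list is named for the complexes that make pseudouridine in ribosomal RNA. It had 0 of 6 called (0 at an unadjusted p under 0.05). GAR1, a core protein, was at 0.16 and SHQ1, an assembly factor outside the core, at 0.067. The RNA exosome had 0 of 12 called (0 at an unadjusted p under 0.05), with C1D at 0.14 and DIS3 at 0.13.

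The array pattern was counted in the other lists as well. Replicate 2 was the highest array of both siRNAs for 27 of 43 large subunit factors and 19 of 40 small subunit factors. It was so for 5 of 15 RNA polymerase I genes, for 3 of 6 genes of the box H/ACA list and for 4 of 12 of the RNA exosome. Among 29 other genes of the MYC target sets, which serve the cell cycle, glycolysis, protein folding and other functions, it was so for 1. Of these 29 genes limma called 0 (3 at an unadjusted p under 0.05), with 16 positive changes. The leading genes by p were DUSP2, a phosphatase, at 0.37, and MCM5, a subunit of the replication helicase, at −0.33 (log2 changes, limma adjusted p = 0.475 and 0.539). DUSP2 lay under the highest background probe set on 3 arrays and MCM5 on all 6, so the size of both is uncertain. The E-box was found in promoter windows of 12 of 35 other small subunit factors, 9 of 36 other large subunit factors and 11 of 26 other MYC targets, in 1 of 14 RNA polymerase I genes, in 2 of 5 box H/ACA genes and in 0 of 10 exosome genes.

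No test was made between members with and without an E-box. The 18 with a match had a median change of 0.013 with 10 positive, and the 17 without had a median of −0.0095 with 6 positive. The probe sets of a member often disagreed in sign, as changes near 0 can. Of the 23 members with more than 1 probe set, 2 had all probe sets higher, NOP2 and WDR43, 7 had all lower and 14 were mixed. Over all 89 probe sets of the members 37 were higher. The control probe sets for 18S ribosomal RNA lie near the top of the array's scale. At the 5′ end they read 13.41 to 13.44 after BATF3 siRNA and 13.34 to 13.48 after control siRNA. The groups overlapped there, at the 3′ end and in the middle. These sets are array controls, and whether they follow the making of ribosomal RNA was not tested.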

How the data were processed

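Total RNA of L428 cells was measured on 6 Affymetrix PrimeView arrays, 3 per siRNA. The table held log2 values deposited by the authors, 1 per probe set and array. That the logarithm is to base 2 was read from the size of the values. The affy package is named in the submitters' processing notes. Its version, background correction, normalization and summarization were not given in the sources used here. Values were used as deposited. Arrays were already on a common scale (sorted values at 1 rank differed by at most 0.145), so a shift of most transcripts one way would not be seen. The number of arrays limits the precision.

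Platform annotation gave a single gene for 45278 probe sets. Each of 18244 genes was represented by its single-gene probe set of highest mean. Differences, BATF3 siRNA minus control siRNA, were fitted in limma 3.58.1 (R 4.3.3; two-sided, 9.30 total and 4 residual degrees of freedom), with Benjamini-Hochberg adjustment over all genes and a threshold of 0.05. With 3 arrays a group, the smallest two-sided exact permutation p is 0.1. The fit was tested on simulated data.

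The members and lists were chosen with earlier results of these data known. Values per array are given for NCL, NPM1, FBL, NOP56, ODC1 and CAD and for the 3 members of each role with the smallest p, and of each other list the 2 genes with the smallest p are named. Alternatives covered normalization, dim genes, probe set choice, array weights, an intensity trend, the replicate number, array background and leaving out each array.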

Additional observations from a re-analysis of the deposited data

How the results depend on the processing

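Over 16 alternative fits 0 members passed in limma, and the smallest adjusted p of a member was 0.21, with array weights. The median change of the members ran from −0.040 to 0.062, within the spread of array medians (SD 0.115), and between 0 and 14 members changed sign against the values reported. MYC stayed between −0.18 and −0.10 and did not pass (adjusted p 0.337 to 1). All genes called numbered 9 with the filter on dim genes (818 at an unadjusted p under 0.05), 5 with the most variable probe set, 25 with array weights, 12 with an intensity trend and robust prior and 0 with the GC-rich background as a covariate (1011 at an unadjusted p under 0.05), against 3, and 0 to 2 without any 1 array. The BATF3 call was lost with that covariate (−1.11), and without 1 array its change ran from −1.24 to −1.14. Members whose groups did not overlap numbered 2 of 41 after median centring (12.7% of all genes in that fit), 3 after cyclic loess (12.3%), 2 with the mean over probe sets (13.3%) and 2 with the most variable probe set (12%), against 1 (12.1%). Without any 1 array they numbered 3 to 10 of 41, or 7.32% to 24.4%, where 18.1% to 29.5% of all genes did not overlap, and the highest count, without control siRNA replicate 2, stood beside 25% of all genes. The cause of these shifts was not tested.

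The replicate number as a block left the members' median at −0.0042, with 3 genes called and 0 members. Same-numbered arrays had deviations that correlated at 0.029, 0.15 and −0.025 for replicates 1, 2 and 3. With 3 arrays a group these values cannot tell whether equal numbers mark a shared culture or day. Only replicate 2 of each siRNA correlated best with its own number. Signal over background limits SLC29A2, which lay under the highest background probe set.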
